A study of Mus musculus with 6 samples.

Results

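STAT6 loss was examined in mouse bronchoalveolar lavage cells by setting the 2 libraries without STAT6 against the 4 libraries that keep it. Both replicates of Cis WT and both of Cis KO, which lacks CIS, the protein of the gene Cish, made up the STAT6-intact pool. Both Cis Stat6 KO replicates, labelled as double knockouts, made up the STAT6-deficient pool. The genes described are those for which both STAT6-deficient libraries lay outside the range of the other 4, which held for 4286 of 16765 tested genes (25.6%), 2333 above (13.9%) and 1953 below (11.6%). These are all 6 libraries of the study, whose cells were washed from the lungs of untreated mice and sequenced as bulk RNA. STAT6 loss was measured only in cells that also lack CIS, so of the intact pool only Cis KO shares the rest of the labelled genotype. The labels do not say how either gene was inactivated, in which cells, or on what background, and give no age. Nor do they tie the replicates to separate animals. The p-values therefore rest on the spread between libraries, which may be technical. In the pooled fit this spread also includes the difference between Cis KO and Cis WT.

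STAT6 is the transcription factor that carries signals from the receptors for interleukin 4 and interleukin 13. Receptor-bound Janus kinases phosphorylate it, and the dimer enters the nucleus and binds palindromic DNA sites. In macrophages it is known for driving alternative activation, with induction of chitinase-like proteins, lectins and lipid-handling genes. CIS is an SH2-domain protein induced by STAT5 that restrains cytokine receptor signalling. Alveolar macrophages, the main cell of the resting airspace, depend on granulocyte-macrophage colony-stimulating factor and on PPARgamma.

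Library totals ran from 50762354 to 65937118 read counts. Cis KO replicate 2 stood apart from the others, with 3.29% of its counts on haemoglobin genes against at most 0.0366% elsewhere, and 15855 genes with a count against 19641 to 20431. All 27 alveolar macrophage markers listed were detected, and their summed level was 35093 to 52917 CPM (counts scaled to a common library size) in the intact libraries and 65693 and 75662 CPM in the deficient ones. Much of this sum came from the markers Lyz2 and Chil3. Lyz2 stood at 11336 to 19996 CPM in intact and 24048 and 24964 CPM in deficient libraries, and Chil3 is given below. Summed epithelial markers were 48.6 to 264 CPM in the intact and 48.1 and 22.5 CPM in the deficient libraries. B cell markers summed to 143 CPM in Cis KO replicate 2 and 57.9 CPM in Cis Stat6 KO replicate 2, against at most 5.80 CPM in the others. Eosinophil markers stayed at or below 0.467 CPM, and the neutrophil sum was 822 CPM in Cis KO replicate 2 against 175 to 302 CPM elsewhere. In bulk RNA, fewer cells of a type and less RNA per cell cannot be told apart.

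**Figure D1:**
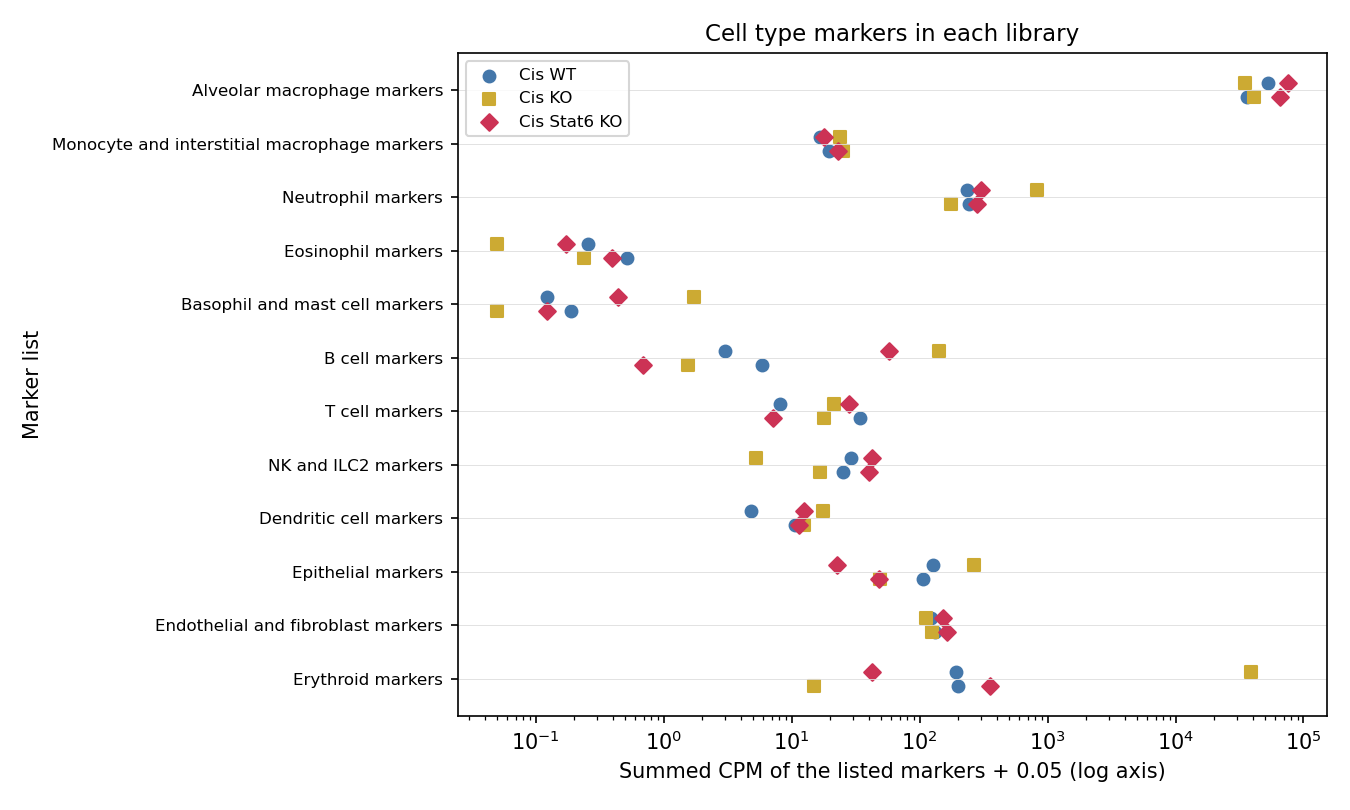
Summed CPM of the markers of each cell type plus a constant of 0.05 (log axis, points are libraries, colours are genotypes). Alveolar macrophage markers are present in every library, and erythroid, B cell and neutrophil markers are highest in 1 Cis KO library.

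The targeted genes were checked first. Stat6 stood at 233 and 227 CPM in Cis WT, 264 and 221 CPM in Cis KO, and 31.6 and 25.5 CPM in Cis Stat6 KO. Both deficient libraries were well below the other 4, but Stat6 reads were not absent. Stat6 fell, with a log2 fold change of -3.05 ± 0.19 (SE; edgeR quasi-likelihood test, Benjamini-Hochberg adjusted p = 0.0119). The call was lost when any library but Cis KO replicate 2 was left out (adjusted p 0.0556 to 0.573) and against Cis KO alone (0.0690), with log2 fold changes of -3.22 to -2.90 throughout. Cish stood at 46.2 and 56.2 CPM in Cis WT, 4.34 and 3.52 CPM in Cis KO, and 1.72 and 5.04 CPM in Cis Stat6 KO. Cish was therefore low in 2 of the 4 intact libraries, as the genotypes imply, and its pooled values overlapped.

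A gene is described as called when its edgeR adjusted p was under 0.05, and only 6 of 16765 tested genes were (0.0358%). Besides Stat6, the lower genes (0.0239%) were Hal and the processed pseudogenes Gm13453 and Gm10036, and the higher genes (0.0119%) were Greb1l and Gpr141. At an unadjusted p under 0.05 there were 1200 genes (7.16%), 605 higher (3.61%) and 595 lower (3.55%). The calls depended on single libraries, as 101 genes were called without Cis KO replicate 2, 1 without Cis KO replicate 1, and 0 without either Cis WT or either Cis Stat6 KO library. An exact permutation test of 4 against 2 libraries cannot go below a two-sided p of 0.0667. The other genes below are described by their library values, since being outside the range is the rule that chose them.

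To order the genes, those averaging 5 CPM or more in the pool with more RNA, and with a gap of at least 1 log2 between the nearest libraries of the pools, were taken. There were 103 such wide-gap genes, 68 above (0.673% of 10098 genes at that level) and 35 below (0.347%). Where the nearest libraries were near the floor, as for Sult2b1 below, a gap of at least 1 log2 can rest on few counts. Otherwise the gaps were far from the edge of the rule. Just inside it lay Pitrm1, at 50.9002 CPM in the lower deficient library and 50.8997 CPM in the highest intact one. Just outside lay Smpd4, at 21.9403 CPM in the lower deficient and 21.9432 CPM in the highest intact library.

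Regulatory sequence is shown for 5 of the 9 wide-gap genes whose promoter window holds a STAT-type palindrome, all 5 above the intact pool, and for 2 of the lowest genes, which hold none. RefSeq promoter windows (GRCm38.p6) were searched for TTC and GAA with any 4 bases between them, the spacing that STAT6 is known to prefer, and with any 3 bases between them, the spacing of most other STAT proteins. Both motifs are palindromic, so 1 search covers both strands, and they cannot overlap at the same start. The window ran from 250 bases before to 50 bases after a RefSeq start, which can differ from the start of the gene as counted. The lines give the 250 upstream bases, with the motif in capitals. The first 3 genes hold the motif with 4 spacer bases and lay above all intact libraries.
Skint3: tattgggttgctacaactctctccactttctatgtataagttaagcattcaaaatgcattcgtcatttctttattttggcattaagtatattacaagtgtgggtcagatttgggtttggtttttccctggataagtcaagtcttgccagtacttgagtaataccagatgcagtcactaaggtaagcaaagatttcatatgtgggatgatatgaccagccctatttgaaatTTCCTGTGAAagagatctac
Clec5a: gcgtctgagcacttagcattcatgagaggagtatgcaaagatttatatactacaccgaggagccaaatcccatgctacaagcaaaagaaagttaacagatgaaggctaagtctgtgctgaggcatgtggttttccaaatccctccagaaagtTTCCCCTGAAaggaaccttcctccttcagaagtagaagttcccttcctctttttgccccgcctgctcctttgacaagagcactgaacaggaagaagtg
Slc10a6: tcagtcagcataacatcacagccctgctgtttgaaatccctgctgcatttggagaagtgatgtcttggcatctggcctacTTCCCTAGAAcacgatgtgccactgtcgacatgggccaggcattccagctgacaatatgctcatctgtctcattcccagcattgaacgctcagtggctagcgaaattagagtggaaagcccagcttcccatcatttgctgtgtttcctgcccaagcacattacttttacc
Skint3 lies at chr4:112231995-112232244 on the plus strand, Clec5a at chr6:40585806-40586055 on the minus strand, and Slc10a6 at chr5:103629404-103629653 on the minus strand. The matches start 20, 98 and 170 bases before the RefSeq start, in that order.

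The next pair, also above, hold the motif with 3 spacer bases.
Chil4: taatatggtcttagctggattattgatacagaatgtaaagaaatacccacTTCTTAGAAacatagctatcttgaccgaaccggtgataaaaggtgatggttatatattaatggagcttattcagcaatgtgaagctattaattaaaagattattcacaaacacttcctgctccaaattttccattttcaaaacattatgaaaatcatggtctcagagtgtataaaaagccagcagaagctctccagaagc
Il1r2: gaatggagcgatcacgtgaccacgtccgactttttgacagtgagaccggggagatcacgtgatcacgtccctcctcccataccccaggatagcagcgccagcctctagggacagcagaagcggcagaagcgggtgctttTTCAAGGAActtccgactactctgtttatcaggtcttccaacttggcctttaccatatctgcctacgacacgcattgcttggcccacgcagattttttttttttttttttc
The Chil4 window is chr3:106219480-106219729 on the minus strand and the Il1r2 window is chr1:40085843-40086092 on the plus strand. Their matches start 200 and 111 bases before the RefSeq start. The Il1r2 window lies inside the gene as counted (chr1:40074079-40125231), so it is not at the start of that gene. Hal and Cers4, among the genes furthest below the intact pool, hold neither motif in their windows.
Hal: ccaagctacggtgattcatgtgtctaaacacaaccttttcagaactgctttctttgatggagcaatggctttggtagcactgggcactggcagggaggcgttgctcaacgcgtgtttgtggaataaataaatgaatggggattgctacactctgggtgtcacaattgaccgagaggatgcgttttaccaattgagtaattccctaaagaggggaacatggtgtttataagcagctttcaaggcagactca
Cers4: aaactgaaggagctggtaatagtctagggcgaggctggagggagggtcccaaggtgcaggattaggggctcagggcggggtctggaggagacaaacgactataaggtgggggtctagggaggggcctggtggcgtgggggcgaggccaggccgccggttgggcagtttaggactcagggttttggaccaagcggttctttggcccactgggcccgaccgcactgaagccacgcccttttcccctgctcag
The Hal window is chr10:93488518-93488767 on the plus strand and the Cers4 window is chr8:4493155-4493404 on the plus strand. The Cers4 window also lies inside the gene as counted (chr8:4493026-4525122). A missing match says only that these letters are not in this window.

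Across the sets, 8 of 55 wide-gap genes above with a promoter entry held either motif (14.5%), against 1 of 19 below (5.26%) and 14.2% of the 11098 tested genes with an entry. Over all 27025 genes of the promoter table the share was 16.6%. The motif with 4 spacer bases alone was in 4 of 55 windows above and 0 of 19 below, against 6.73% of tested genes. The exact 95% binomial intervals, 6.50 to 26.7% above and 0.133 to 26.03% below, both held the share of all tested genes. The matches not shown were in Bok, Tdg and Ceacam19 above and in Trp53i11, the only match below.

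Among the genes below the intact pool, the widest gap was that of Hal, which encodes histidine ammonia-lyase, the first enzyme of histidine breakdown. Hal (chr10:93488768-93519304, mm10, plus strand) stood at 36.5 and 37.3 CPM in Cis WT, 15.2 and 34.9 CPM in Cis KO, and 0.173 and 0.206 CPM in Cis Stat6 KO. The deficient libraries were close to 0 while all intact libraries were well expressed, and the nearest libraries differed 63.6-fold. Hal fell with a log2 fold change of -7.35 ± 0.57 (SE; edgeR, adjusted p = 0.0242). In the 3-genotype edgeR fit its log2 fold change was -7.04 against Cis KO (adjusted p = 0.00937) and -7.60 against Cis WT (adjusted p = 0.00988). The pooled call was lost without any 1 of the Cis WT or Cis Stat6 KO libraries, with adjusted p between 0.0741 and 0.573, with limma-voom (0.105), with the replicate number as a block (0.0724) and against Cis KO alone (0.0711), while the log2 fold change stayed between -7.61 and -7.05 over all alternatives.

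Hdc, the enzyme that turns the same amino acid into histamine, lay on the other side. Its level was 2.00 and 1.65 CPM in Cis WT, 0.406 and 2.83 CPM in Cis KO, and 19.0 and 19.5 CPM in Cis Stat6 KO. The deficient pair were nearly equal and above every intact library, with a log2 fold change of 3.48 ± 0.62 (SE; edgeR, adjusted p = 0.211), which was not called. Per gene length, in the deposited FPKM, the level of Hal in intact libraries was 2.69 to 6.28 and that of Hdc 0.06 to 0.34. In the deficient libraries the FPKM levels were 0.03 and 0.03 for Hal and 2.89 and 2.55 for Hdc, so the order of the pair was inverted. Of the 10 tested genes of amino acid catabolism, 4 lay above and 2 below, against 13.9% and 11.6% of all tested genes. Of the 10, 1 was called (Hal), against 0.0358% of all tested genes. This and the other lists were chosen with earlier results of these data known, so their shares are a description only. The median log2 fold change of the 10 was 0.64 against -0.00 over all tested genes. Kynu, which cleaves kynurenine, stood at 58.5 to 71.9 CPM in intact and 95.1 and 131 CPM in deficient libraries. Arg2, the mitochondrial arginase, stood at 1.77 to 7.37 CPM against 10.2 and 13.7 CPM.

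Cers4, a ceramide synthase that adds long acyl chains to the sphingoid base, was nearly silent without STAT6. Its level was 6.47 and 7.12 CPM in Cis WT, 19.8 and 17.6 CPM in Cis KO, and 0.116 and 0.144 CPM in Cis Stat6 KO. Within the intact pool both Cis KO libraries were above both Cis WT libraries, and the nearest libraries of the pools differed 36.5-fold. The pooled log2 fold change was -6.61 ± 0.78 (SE; edgeR, adjusted p = 0.0876), which was not called. In the 3-genotype edgeR fit Cers4 fell against both Cis KO (log2 fold change -7.16, adjusted p = 0.00374) and Cis WT (-5.70, adjusted p = 0.00988). Of 28 tested sphingolipid enzymes 6 lay above and 2 below, against 13.9% and 11.6% of all tested genes. By edgeR 0 of the 28 were called, and their median log2 fold change was 0.08. At an unadjusted p under 0.05, 1 was higher and 1 lower, against 3.61% and 3.55% of all tested genes. Cers2, Cers5 and Cers6, the other ceramide synthases tested, were at 152 to 185, 68.5 to 84.0 and 21.1 to 39.9 CPM over the 6 libraries. Asah1, an acid ceramidase of the lysosome, was the higher one, at 294 to 457 CPM in intact and 490 and 568 CPM in deficient libraries.

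Sugar- and sulfate-transferring enzymes were among the genes furthest below. St6galnac2, a sialyltransferase of O-linked glycans, stood at 5.66 and 3.04 CPM in Cis WT, 33.4 and 20.8 CPM in Cis KO, and 0.636 and 0 CPM in Cis Stat6 KO. It shares its symbol and part of its locus with a second annotated gene, so its counts are uncertain. St6galnac1, a related enzyme, stood at 1.00 and 0.307 CPM in Cis WT, 7.66 and 5.85 CPM in Cis KO, and 0 in both Cis Stat6 KO libraries. This was 825 counts against 0, at least 138-fold lower against a floor of 3 counts over the group, with most of the intact counts from Cis KO. It fell against Cis KO in the 3-genotype edgeR fit (adjusted p = 0.0473), with an adjusted p of 0.175 against Cis WT. Of 13 tested sialyltransferases 5 lay above and 3 below, against 13.9% and 11.6% of all tested genes. None of the 13 was called by edgeR in the pooled comparison, and their median log2 fold change was -0.02. At an unadjusted p under 0.05, 2 were higher and 3 lower, against 3.61% and 3.55% of all tested genes.

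Sult2b1, a sulfotransferase of cholesterol and other sterols, had a pattern of its own within the pool. It stood at 0.259 and 0.0585 CPM in Cis WT, 15.4 and 36.6 CPM in Cis KO, and 0 in both Cis Stat6 KO libraries. It was thus high in Cis KO and near or at 0 in the rest, and over the whole pool it was at least 438-fold lower without STAT6 (2611 counts against 0, floor of 3 counts over the group). It fell against Cis KO in the 3-genotype edgeR fit (adjusted p = 0.0355), with an adjusted p of 0.647 against Cis WT. Of the 5 tested cytosolic sulfotransferases 2 lay below and 0 above, against 11.6% and 13.9% of all tested genes. By edgeR 0 of the 5 were called in the pooled comparison. Both Sult2b1 and Sult4a1 were lower at an unadjusted p under 0.05, against 3.55% of all tested genes. The median log2 fold change of the 5 was -0.52. Chst15, a Golgi sulfotransferase of chondroitin sulfate, was lower in both Cis KO than in both Cis WT libraries. It stood at 25.03 and 25.7 CPM in Cis WT, 23.1 and 15.02 CPM in Cis KO, and 4.94 and 3.08 CPM in Cis Stat6 KO (log2 fold change -2.47 ± 0.35 SE; edgeR, adjusted p = 0.160).

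Plxnb2, a plexin receptor for class 4 semaphorins, stood at 21.8 and 14.0 CPM in Cis WT, 108 and 142 CPM in Cis KO, and 2.38 and 1.15 CPM in Cis Stat6 KO. All genotypes were separate from each other. The pooled log2 fold change was -5.33 ± 1.22 (SE; edgeR, adjusted p = 0.426), and in the 3-genotype fit it fell against Cis KO by 6.13 on the log2 scale (edgeR, adjusted p = 0.00974). Of 22 tested plexins, neuropilins and semaphorins 0 lay above and 3 below, against 13.9% and 11.6% of all tested genes. The edgeR test called 0 of the 22, and their median log2 fold change was -0.04. Against 3.61% higher and 3.55% lower among all tested genes, 0 were higher and 4 lower at an unadjusted p under 0.05. Besides Plxnb2 these were Plxna3, at 0.811 to 2.83 CPM in intact and 0.188 and 0.370 CPM in deficient libraries, Sema4a, at 127 to 206 CPM against 116 and 88.6 CPM, and Sema3e. Sema3e, a secreted class 3 semaphorin, stood at 3.92 and 12.1 CPM in Cis WT, 6.95 and 0 CPM in Cis KO, and 0 in both Cis Stat6 KO libraries, and its pools overlapped because Cis KO replicate 2 was also at 0.

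The lower genes also included members of other pathways. Ptgs1, the constitutive cyclooxygenase, stood at 10.1 and 8.64 CPM in Cis WT, 9.11 and 9.77 CPM in Cis KO, and 1.86 and 2.90 CPM in Cis Stat6 KO. Its 4 intact libraries were close together, and the log2 fold change was -1.98 ± 0.32 (SE; edgeR, adjusted p = 0.183). Ptgs2, the inducible cyclooxygenase, went the other way, at 0.690 and 1.43 CPM in Cis WT, 0.172 and 0 CPM in Cis KO, and 12.7 and 8.16 CPM in Cis Stat6 KO. Per gene length, the FPKM level of Ptgs1 was 1.94 to 2.47 in intact libraries and that of Ptgs2 0 to 0.29, and in the deficient ones Ptgs1 stood at 0.46 and 0.62 and Ptgs2 at 2.70 and 1.49. Of 17 tested eicosanoid enzymes 3 lay above and 4 below, against 13.9% and 11.6% of all tested genes. The median log2 fold change of the 17 was -0.54, with a range of -0.63 to -0.17 over the alternatives (-0.17 against Cis WT alone and -0.21 without Cis KO replicate 2). By edgeR 0 of the 17 were called. At an unadjusted p under 0.05, 2 were higher and 2 lower, against 3.61% and 3.55% of all tested genes. The other members past that level were Pla2g4a, the cytosolic phospholipase that frees arachidonic acid (39.4 to 59.2 CPM in intact, 69.7 and 66.2 CPM in deficient libraries), and Pla2g15, a lysosomal phospholipase (608 to 866 against 492 and 387 CPM).

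Pltp, the phospholipid transfer protein, stood at 286 and 275 CPM in Cis WT, 272 and 362 CPM in Cis KO, and 95.3 and 36.6 CPM in Cis Stat6 KO. Plekho1, a pleckstrin-homology adaptor protein, stood at 38.3 and 32.6, 35.1 and 59.5, and 8.26 and 7.75 CPM in the same order of genotypes. Abi3, a component of complexes that control actin, stood at 52.8 and 48.0, 25.5 and 40.5, and 8.74 and 5.47 CPM. None of the 3 was called by edgeR (adjusted p 0.221, 0.132 and 0.167), and none overlapped between the pools.

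Clcf1, a cytokine of the interleukin 6 family, was at 6.34 to 7.99 CPM in intact and 1.31 and 0.658 CPM in deficient libraries. Neurl1a, a ubiquitin ligase, was at 3.69 to 7.497 against 0.780 and 1.01 CPM. Id3, an inhibitor of basic helix-loop-helix factors, was at 2.63 to 15.05 against 0.867 and 0.720 CPM. In all 3 the pools did not overlap, and none was called by edgeR.

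Clca1, a secreted regulator of chloride channels known as a product of interleukin 13-stimulated goblet cells, differed mainly within the intact pool. It stood at 15.6 and 11.5 CPM in Cis WT, 0.266 and 0.365 CPM in Cis KO, and 0.0433 and 0 CPM in Cis Stat6 KO. Over the pools this was 1721 counts against 3, a scaled ratio of 289 (95% interval 98.6 to 1401, counting error only). Sftpb, surfactant protein B of alveolar type 2 cells, was at 2.59 to 12.8 CPM in intact and 0.751 and 0.494 CPM in deficient libraries. Of the 12 epithelial markers tested, 5 lay below (against 11.6% of all tested genes), 0 above and 7 within the intact range, with a median log2 fold change of -1.53. None was called by edgeR. At an unadjusted p under 0.05, 4 were lower (against 3.55% of all tested genes), namely Sftpb, Sftpa1, Scgb1a1 and Scgb3a2. The summed level of the 12 markers ranged from 48.6 to 264 CPM in intact libraries and was 48.1 and 22.5 CPM in deficient ones. The part of epithelial RNA in the values of Clca1 and Sftpb was not tested.

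**Figure D2:**
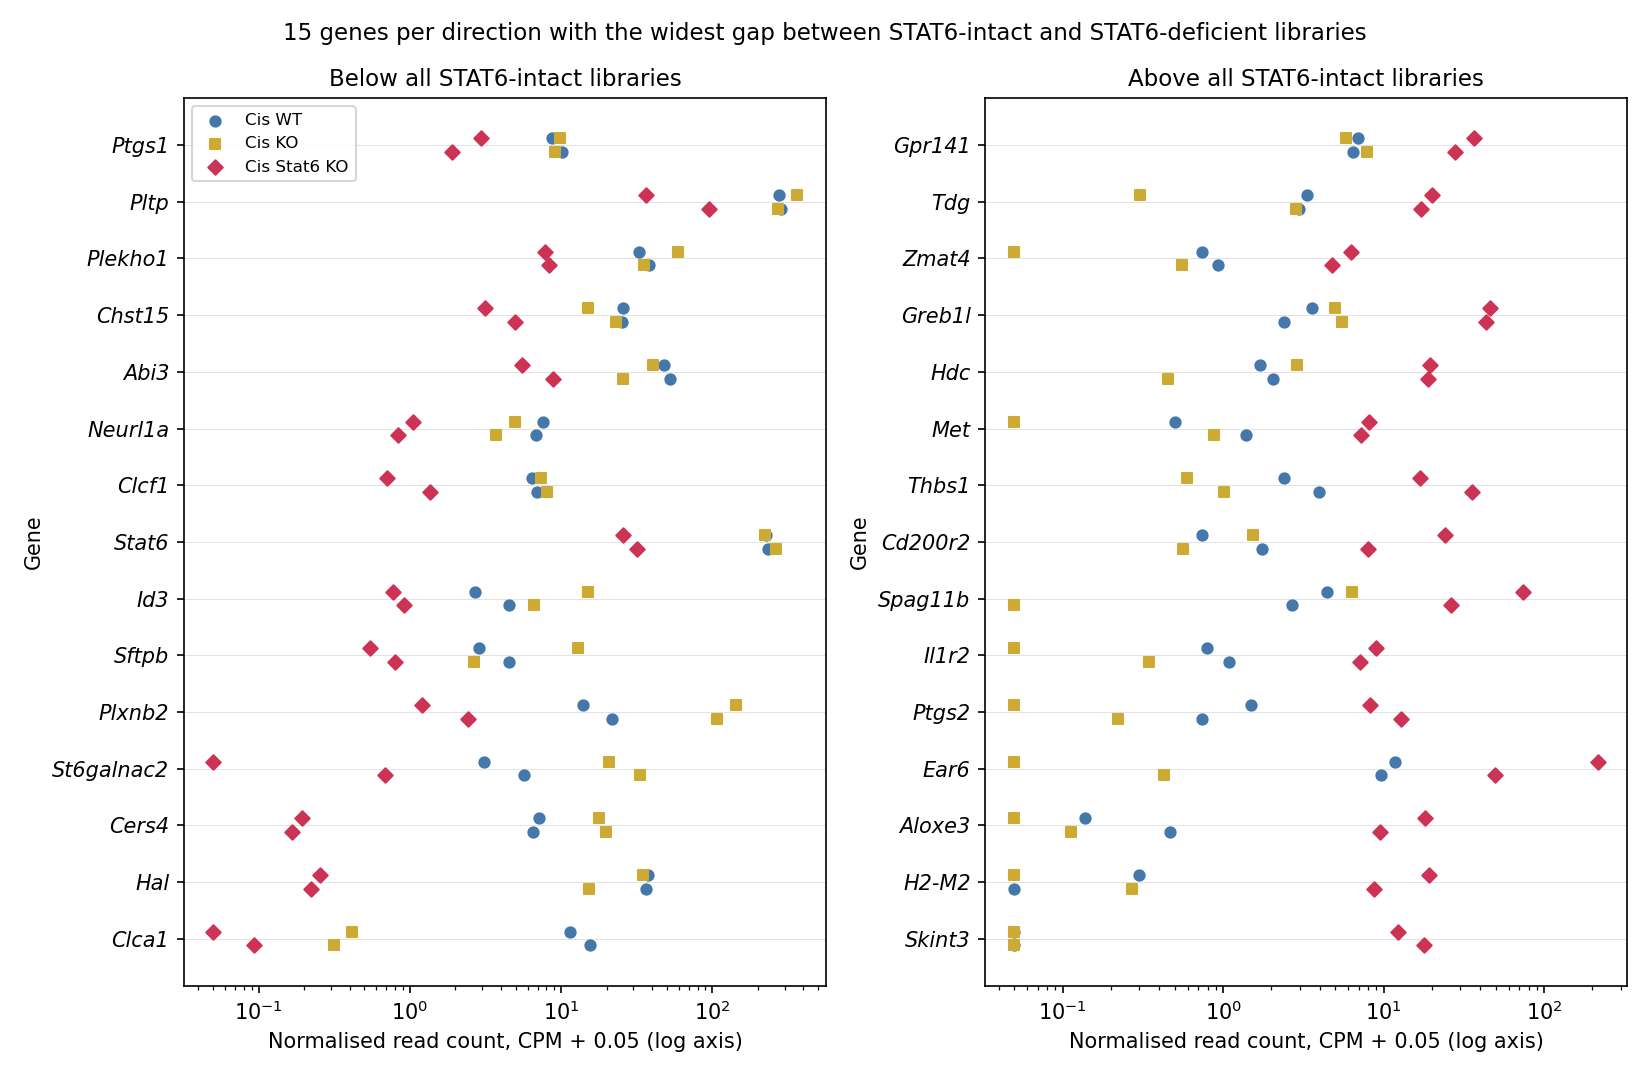
CPM plus 0.05 (log axis) in each of the 6 libraries for the 15 genes per direction with the widest gap between the pools; points are libraries and colours genotypes. Stat6, Hal, Greb1l and Gpr141 were called, and the spread of Cis KO from Cis WT differs from gene to gene.

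Among the genes above the intact pool, Greb1l and Gpr141 were called. Greb1l, a GREB1-like protein with a role in kidney development, stood at 2.35 and 3.54 CPM in Cis WT, 5.44 and 4.93 CPM in Cis KO, and 43.5 and 46.2 CPM in Cis Stat6 KO. The deficient pair were close to each other and lay 7.95-fold above the nearest intact library. Greb1l rose with a log2 fold change of 3.46 ± 0.33 (SE; edgeR, adjusted p = 0.0407). In the 3-genotype edgeR fit it rose against both Cis KO (3.11, adjusted p = 0.0169) and Cis WT (3.93, adjusted p = 0.00988).

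Gpr141, an orphan G protein-coupled receptor of myeloid cells, stood at 6.44 and 6.90 CPM in Cis WT, 7.88 and 5.80 CPM in Cis KO, and 27.7 and 36.7 CPM in Cis Stat6 KO. The 4 intact libraries lay within a narrow band that the deficient ones did not reach. In the 3-genotype edgeR fit Gpr141 was called against Cis KO (log2 fold change 2.24, adjusted p = 0.0410). Against Cis WT in that edgeR fit it was not called (log2 fold change 2.27, adjusted p = 0.0631). In the pooled fit Gpr141 rose with a log2 fold change of 2.25 ± 0.22 (SE; edgeR, adjusted p = 0.0407). Both calls were lost when any library but Cis KO replicate 2 was left out, with adjusted p of 0.0741 to 0.754 for Greb1l and 0.140 to 0.875 for Gpr141, and the Gpr141 call also without scaling (0.0653). Both were also lost with the replicate number as a block (0.187 for Greb1l and 0.207 for Gpr141) and against Cis KO alone (0.0711 and 0.194). The log2 fold changes ranged from 3.10 to 3.92 and from 2.04 to 2.43 over all alternatives.

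Some genes were close to silent with STAT6 and expressed without it. Skint3, of a family of butyrophilin-like immunoglobulin genes known from skin and thymus, had 0 counts in all 4 intact libraries and stood at 17.7 and 12.2 CPM in Cis Stat6 KO. This was 1819 counts against 0, at least 1205-fold higher against a floor of 3 counts over the group (edgeR, adjusted p = 0.0584). It was called against Cis KO and against Cis WT in the 3-genotype edgeR fit (adjusted p = 0.0308 and 0.0420), and its promoter holds the match shown above. H2-M2, a nonclassical class I histocompatibility gene, stood at 0 and 0.248 CPM in Cis WT, 0.219 and 0 CPM in Cis KO, and 8.67 and 19.2 CPM in Cis Stat6 KO. Skint3 and H2-M2 belong to families of similar genes, so reads shared with relatives make their counts uncertain.

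Aloxe3, an epidermis-type lipoxygenase, stood at 0.414 and 0.0877 CPM in Cis WT, 0.0625 and 0 CPM in Cis KO, and 9.46 and 18.1 CPM in Cis Stat6 KO. Cd200r2, an activating relative of the CD200 receptor, stood at 0.516 to 1.69 CPM in intact and 7.89 and 24.2 CPM in deficient libraries. Both were low in every intact library, and neither was called by edgeR (adjusted p = 0.187 and 0.183).

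Met, the receptor for hepatocyte growth factor, was at 0 to 1.35 CPM in intact and 7.14 and 8.02 CPM in deficient libraries. Thbs1, the matricellular protein thrombospondin 1, was at 0.548 to 3.90 against 35.5 and 16.8 CPM. Tdg, a DNA glycosylase that acts in active demethylation, was at 0.251 to 3.27 against 17.1 and 19.9 CPM. In the 3-genotype edgeR fit Thbs1 rose against Cis KO (log2 fold change 5.09, adjusted p = 0.0313), with an adjusted p of 0.152 against Cis WT.

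Il1r2, the decoy receptor of interleukin 1, was at 0 to 1.04 CPM in intact and 7.05 and 8.94 CPM in deficient libraries. Zmat4, a zinc finger gene, was at 0 to 0.880 against 4.74 and 6.25 CPM. Spag11b, a beta-defensin-like gene, was at 0 to 6.28 against 26.3 and 73.4 CPM. Ear6, an eosinophil-associated ribonuclease with near-identical relatives, was at 9.64 and 11.7 CPM in Cis WT, 0.375 and 0 CPM in Cis KO, and 49.6 and 218 CPM in Cis Stat6 KO. The counts of Ear6 are uncertain for that reason, and eosinophil markers were at or below 0.467 CPM in every library. None of the uncalled genes among the 15 highest had an edgeR adjusted p below 0.0584, and none among the 15 lowest below 0.0876.

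The wide-gap genes that follow were named after their values were seen, and none was called by edgeR. Ctsk, the collagen-cleaving cathepsin K, stood at 770 and 665 CPM in Cis WT, 482 and 478 CPM in Cis KO, and 1871 and 2809 CPM in Cis Stat6 KO. Capza1, a capping protein of actin filaments, stood at 140 to 181 CPM in intact and 415 and 407 CPM in deficient libraries. Itgam, the CD11b integrin chain, was at 4.30 to 11.7 against 29.2 and 33.4 CPM. Clec5a, an activating lectin receptor of myeloid cells, was at 24.1 to 61.9 against 144 and 238 CPM. Wfdc17, a small secreted protein of activated macrophages, was at 9.60 to 24.9 against 50.3 and 79.1 CPM. Below the pool lay Fuca1, a lysosomal fucosidase, at 393 to 453 against 186 and 169 CPM, and Dusp5, a nuclear phosphatase of the kinase ERK, at 61.2 to 77.2 against 27.3 and 18.9 CPM. For each of these 7 genes the pools were separated by at least 2.01-fold between the nearest libraries.

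The pool was not uniform, since Cis KO and Cis WT differed for many of the genes. Of the 68 wide-gap genes above, 25 were lower in Cis KO than in Cis WT by at least 1 on the log2 scale, 38 were within 1 and 5 were higher. The share lower by that much over the 10098 genes at that level was 4.24%, and the share higher was 3.83%. Of the 35 below, 1 was lower (Clca1), 26 were within 1 and 8 were higher. The genes were chosen on these same 4 libraries, so the counts are a description. In the 3-genotype edgeR fit, 10 of the 68 and 12 of the 35 were called against Cis KO (0.358% of all tested), 3 and 7 against Cis WT (0.131%), and 2 and 0 in Cis KO against Cis WT (0.274%).

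Members within 1 on the log2 scale included Stat6, Hal, Gpr141, Greb1l, Plekho1, Chst15, Ptgs1, Pltp, Capza1 and Fuca1. Members that were lower in Cis KO included Il1b, Acod1, Cxcl3, Thbs1 and Ear6, whose highest intact values were all in Cis WT. Mamdc2, an extracellular matrix gene, was the reverse, at 0.190 and 0.438 CPM in Cis WT, 22.1 and 12.8 CPM in Cis KO, and 46.7 and 46.5 CPM in Cis Stat6 KO. Its level thus stepped up in Cis KO and again in Cis Stat6 KO.

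**Figure D3:**
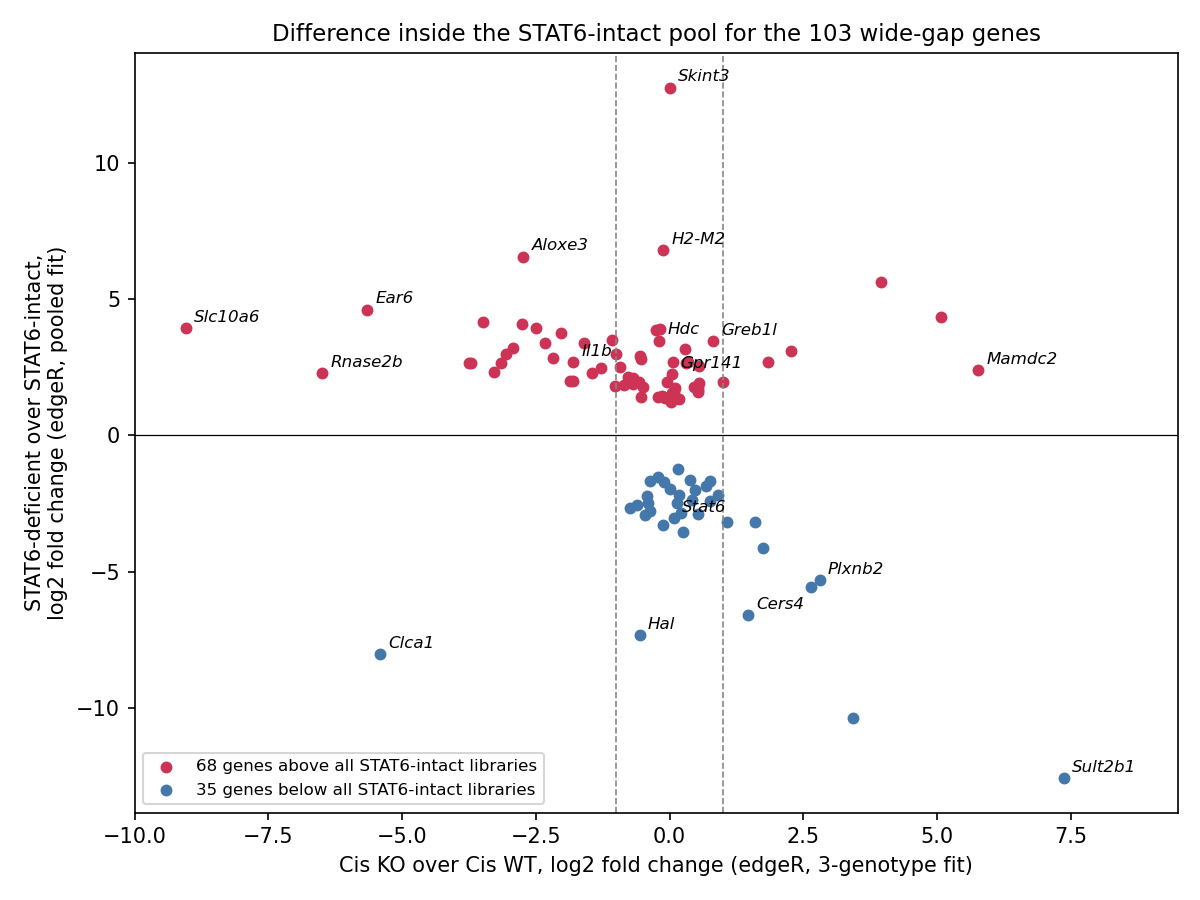
Log2 fold change of the STAT6-deficient over the STAT6-intact libraries (vertical) against that of Cis KO over Cis WT (horizontal) for the 103 wide-gap genes; dashed lines mark a difference of 1. Both axes use the same 4 intact libraries, so no relation is read from the plot; it shows which genes differ inside the pool, such as Plxnb2 and Ear6, and which by less than 1. The positions of Skint3, Sult2b1 and Slc10a6, which have groups at 0 counts, depend on the prior count of the fit.

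Classical activation is the inflammatory state of macrophages that lipopolysaccharide and interferon gamma induce. Of 31 tested genes of classical activation, 18 lay above and 0 below the intact range, against 13.9% and 11.6% of all tested genes. The median log2 fold change of the 31 was 1.24 against -0.00 over all tested genes. The list was chosen with earlier results of these data known, so these values are a description. By edgeR 0 of the 31 were called. At an unadjusted p under 0.05, 14 were higher and 0 lower, against 3.61% and 3.55% of all tested genes. In the 3-genotype edgeR fit 7 of the 31 were called against Cis KO, 0 against Cis WT and 4 in Cis KO against Cis WT. The shares of all tested genes were 0.358%, 0.131% and 0.274%. Il1b, the cytokine interleukin 1 beta, stood at 15.4 and 20.4 CPM in Cis WT, 5.77 and 4.50 CPM in Cis KO, and 84.7 and 64.5 CPM in Cis Stat6 KO, and rose against Cis KO in that fit (log2 fold change 3.86, edgeR adjusted p = 0.00937). Ccl3, a chemokine for monocytes and other leukocytes, stood at 24.9 and 18.7, 9.13 and 18.1, and 47.7 and 194 CPM. Acod1, which makes itaconate, stood at 26.8 and 19.4, 2.34 and 2.37, and 56.9 and 72.7 CPM.

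For these genes the Cis KO libraries were the lowest, and the median log2 fold change of the list in Cis KO against Cis WT was -0.82. Cd14, the lipopolysaccharide co-receptor, stood at 90.1 to 144 CPM in intact and 207 and 201 CPM in deficient libraries, and Il1a at 10.3 to 29.1 against 44.0 and 79.6 CPM. The neutrophil markers Cxcr2 (2.94 to 4.11 against 10.4 and 10.1 CPM) and Mmp8 (11.9 to 18.3 against 34.4 and 24.3 CPM) also lay above. The other 8 of 10 overlapped, where 13.9% of all tested genes lay above. The summed level of the 10 markers was 175 to 822 CPM in intact and 280 and 302 CPM in deficient libraries. The part of neutrophil RNA in these values was not tested.

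Genes that interleukin 4 and STAT6 are known to induce in macrophages were not uniformly lower. Of 29 tested, 8 lay above and 3 below, against 13.9% and 11.6% of all tested genes. By edgeR 0 of the 29 were called. At an unadjusted p under 0.05, 7 were higher and 1 lower, against 3.61% and 3.55% of all tested genes. The median log2 fold change of the 29 was 0.36. Chil3, a chitinase-like protein abundant in alveolar macrophages, stood at 8777 and 15011 CPM in Cis WT, 11570 and 6881 CPM in Cis KO, and 22278 and 31128 CPM in Cis Stat6 KO. Chil4, its close relative, stood at 5.80 and 51.5, 29.9 and 9.11, and 239 and 122 CPM, and reads shared between the pair make both uncertain. Atp6v0d2, a subunit of the proton pump, stood at 787 to 1063 CPM in intact and 1490 and 1637 CPM in deficient libraries. Ch25h, a cholesterol hydroxylase, stood at 29.95 to 65.5 against 76.3 and 118 CPM.

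The alternative activation markers Arg1 and Retnla were at or below 2.66 and 1.54 CPM in every library. Mrc1, the mannose receptor, overlapped at 776 to 1402 CPM in intact and 1468 and 1146 CPM in deficient libraries. Ptgs1 was the only member of the list lower at an unadjusted p under 0.05. Tgm2 (715 to 772 against 616 and 645 CPM) and Batf3 (3.14 to 17.1 against 2.20 and 2.53 CPM) also lay below.

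Components of the pathway itself were also examined. Of 19 tested genes of interleukin 4 and 13 signalling, 1 lay above, 1 below (Stat6), and 17 overlapped, where 25.6% of all tested genes left the range, and the median log2 fold change was -0.03. Il4ra, the shared receptor chain, stood at 138 to 223 CPM in intact and 191 and 132 CPM in deficient libraries. Il13ra1, the partner chain of the type 2 receptor, stood at 74.9 and 80.9 CPM in Cis WT, 82.6 and 65.7 CPM in Cis KO, and 114 and 108 CPM in Cis Stat6 KO (log2 fold change 0.54 ± 0.16 SE; edgeR, adjusted p = 0.572). The ligand genes were close to absent, with Il4 at or below 0.351 CPM and Il13 at or below 0.165 CPM in every library. The 6 other STAT genes all overlapped.

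Alveolar macrophage markers were spread over both sides. Of 27, 12 lay above and 5 below, against 13.9% and 11.6% of all tested genes. By edgeR 0 of the 27 were called. At an unadjusted p under 0.05, 7 were higher and 4 lower, against 3.61% and 3.55% of all tested genes. The median log2 fold change of the 27 was 0.21. Marco, a scavenger receptor, stood at 637 to 1260 CPM in intact and 1589 and 2249 CPM in deficient libraries, and Fabp5, a fatty acid binding protein, at 340 to 730 against 1022 and 1564 CPM. Cidec, a lipid droplet protein, stood at 256 to 339 against 208 and 135 CPM. Siglecf, a defining surface marker, overlapped at 177 to 232 against 201 and 140 CPM.

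Markers of other cells were counted in the same way, against 13.9% of all tested genes above and 11.6% below. Of the monocyte and interstitial macrophage markers 1 of 11 lay above, of the dendritic cell markers 1 of 6, of the NK and ILC2 markers 2 of 5, and of the endothelial and fibroblast markers 1 of 5, with 0 below in each. Of 6 B cell, 10 T cell and 6 erythroid markers 0 left the range. The single eosinophil marker tested also overlapped, and no basophil or mast cell marker passed the filter.

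**Figure D4:**
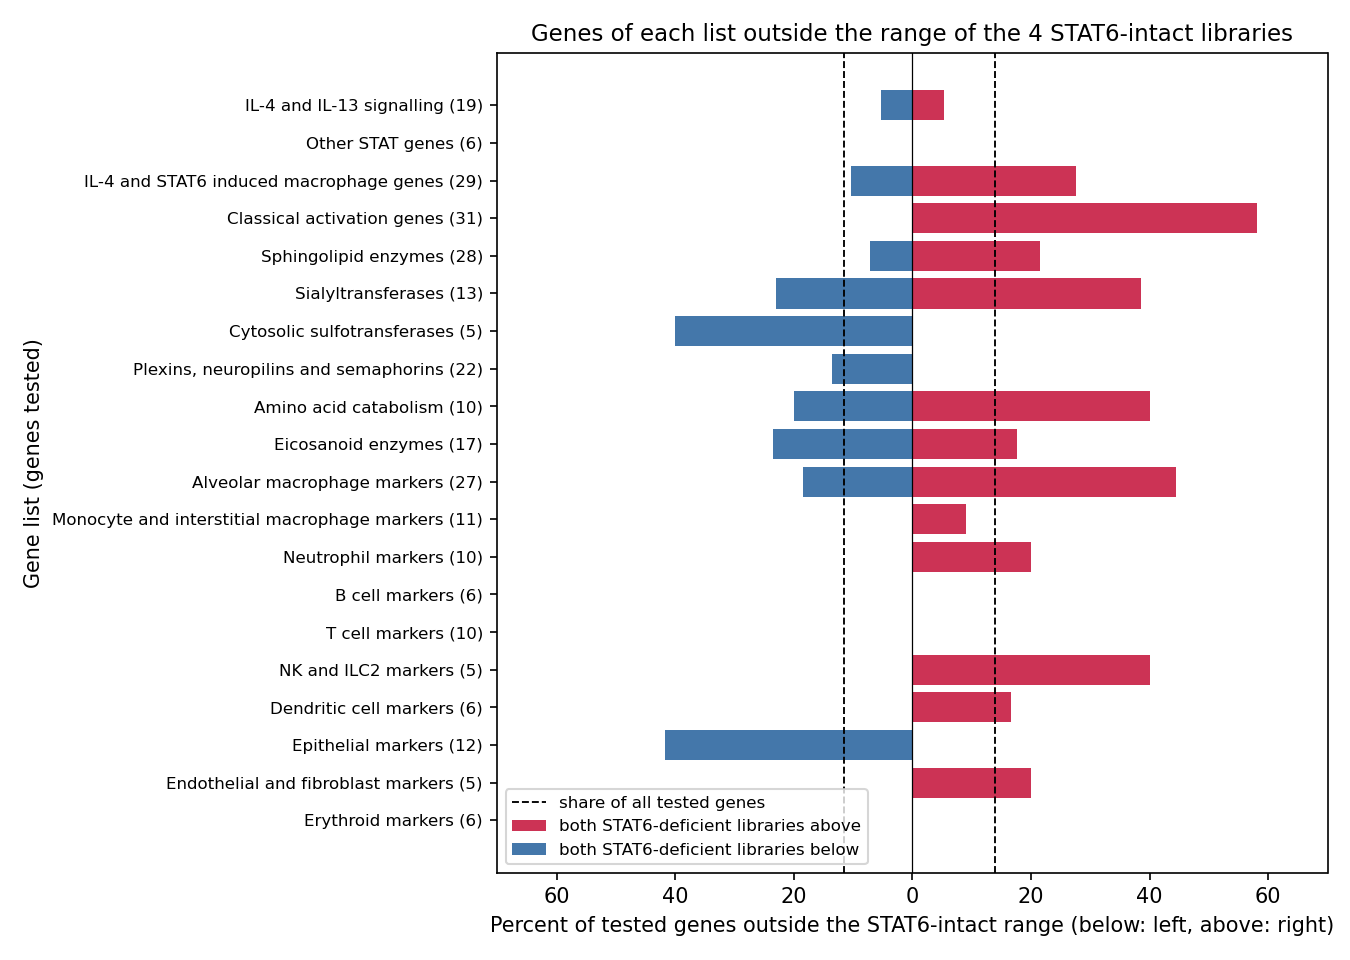
Percent of the tested genes of each list that lay above (right) or below (left) all 4 STAT6-intact libraries; dashed lines mark 13.9% and 11.6%, the shares of all tested genes. Classical activation genes stand out to the right with 18 of 31, and epithelial markers to the left with 5 of 12. The lists were chosen with earlier results of these data known, so the shares are a description. Lists with fewer than 5 tested genes are not drawn.

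Genes near Stat6 on chromosome 10 were also examined. Within 10 Mb of its start lay 0.747% of the genes outside the range and 0.740% of all tested genes. Within 2 Mb, Stat6 itself aside, 16 of 79 tested genes lay below (20.3%, against 11.6% of all tested) and 6 above (7.59%, against 13.9%). The 16 had small log2 fold changes, from -1.09 to -0.20, none of the 79 passed the adjusted edgeR threshold, and 5 had an unadjusted p under 0.05. No other wide-gap gene lay in that window.

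B4galnt1, a ganglioside synthase 0.478 Mb before Stat6, stood at 396 and 424 CPM in Cis WT, 646 and 962 CPM in Cis KO, and 326 and 244 CPM in Cis Stat6 KO. Cd63, a tetraspanin of late endosomes 1.26 Mb after Stat6, was on the other side, at 205 and 171 CPM in Cis WT, 181 and 271 CPM in Cis KO, and 437 and 757 CPM in Cis Stat6 KO (log2 fold change 1.53 ± 0.27 SE; edgeR, adjusted p = 0.211). These flanking genes were named after their values were seen.

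**Figure D5:**
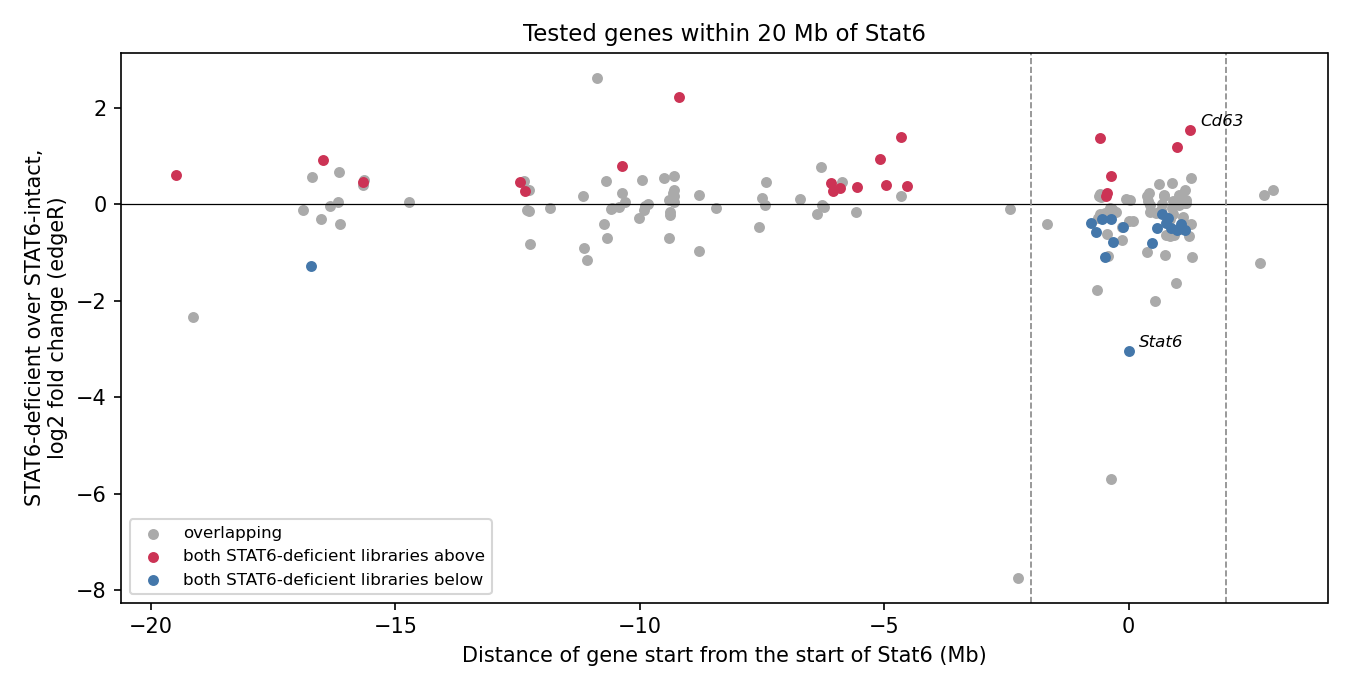
Log2 fold change of the tested genes on chromosome 10 within 20 Mb of the start of Stat6, by distance; dashed lines mark 2 Mb. Stat6 is at -3.05, the genes next to it that lie below all intact libraries are between -1.09 and -0.20, and Cd63 is at 1.53.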

How the data were processed

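The authors deposited, for each of 6 libraries, a raw read count per gene and an FPKM value, which divides the count by gene length and library total, per the file headers. The genome build was mm10, per the submitters' processing notes. Aligner, counter and strand were not given in the sources used here: overlapping, antisense and paralogous genes are uncertain. Of 40564 genes, filterByExpr kept 16765. Counts were scaled by TMM and tested with edgeR 4.0.16 (R 4.3.3; quasi-likelihood F test, two-sided, Benjamini-Hochberg adjusted p under 0.05) in a fit with 1 factor, STAT6 intact or deficient, on 4 residual degrees of freedom, without a replicate block. A 3-genotype fit gave the component comparisons. The standard error is the log2 fold change over the square root of F. CPM are TMM-scaled, and gaps between nearest libraries used a prior count of 2. The biological coefficient of variation of the pooled fit, which also takes in the difference between Cis KO and Cis WT, was 56.5%. At 50762354 to 65937118 counts per library the spread between libraries therefore exceeded counting error for all but weak genes. Intervals and floors cover counting error only.

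The genes named are Stat6, Cish and the 15 per direction with the widest gap that have a mean of at least 5 CPM and an informative symbol, called genes first, and up to 4 genes of each list with the smallest p. Further wide-gap, flanking and list genes were named after their values were seen. Members and the 22 lists were chosen with earlier results of these data known. The alternatives were the 3-genotype fit, DESeq2 1.42.0, limma-voom with library quality weights (limma 3.58.1), other scalings and filters, a replicate block, and leaving out libraries or a genotype. The fits were tested on simulated data. Promoters were taken from RefSeq tables of GRCm38.p6 by symbol, and 74 of the 103 wide-gap genes had an entry.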

Additional observations from a re-analysis of the deposited data

Results flagged for a closer look

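In 3 of the 31 genes checked (Stat6, Cish and those with the widest gaps), 1 of the 4 STAT6-intact libraries lay far from the other 3 by Dixon's criterion, and chance flags about 1 in 20 such groups. Tdg stood at 0.251 CPM in Cis KO replicate 2, below 2.80 to 3.27 CPM in the other intact libraries. Hal stood at 15.2 CPM in Cis KO replicate 1, below 34.9 to 37.3 CPM. Pltp stood at 362 CPM in Cis KO replicate 2, above 272 to 286 CPM. By the rule that chose these genes the STAT6-deficient libraries lie outside the intact range, and leaving that library out cannot change this.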

How the results depend on the processing

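The pooled count of 6 called genes became 31 in the 3-genotype fit, 265 with DESeq2 (125 higher, 140 lower), 159 with limma-voom (124 higher, 35 lower), 13 without a filter and 277 against Cis WT alone. It ranged from 0 to 101 with 1 library left out, and was 5 against Cis KO alone, of which 0 were among the 6. Genes outside the range numbered 321 with a gap of at least 1 log2, and 5063 to 7883 with 1 library left out. Against Cis KO, 60 called genes became 1540 with DESeq2 and 4 to 6014 with 1 library left out. Against Cis WT, 22 became 317 and 0 to 278. For Cis KO against Cis WT, 46 became 544 and 0 to 5338. Among the fits with 1 library left out, the highest counts of called genes came without Cis KO replicate 1 or 2. In the 3-genotype fit the lone Cis KO library left is then assumed to vary like the others. The cause was not tested. Other scalings and filters gave 3457 to 4697 genes outside the range. The motif with 4 spacer bases alone was in 0% of the promoters below. No log2 fold change of the 30 widest-gap genes, Stat6 and Cish or of the list genes with an unadjusted p under 0.05 reversed under any alternative. For the 30 genes the rule that chose them fixes the direction when a library or genotype is left out. The list genes were chosen by their p in the same pooled fit. The absence of reversals is therefore no check of these genes. Over the alternatives the median of the classical activation genes ran from 0.87 to 1.72, that of the epithelial markers from -2.30 to -0.92, that of the STAT6-induced genes from 0.08 (without Cis Stat6 KO replicate 1) to 0.41, and that of the amino acid catabolism genes from 0.05 (without the same library) to 0.92. The median of the sulfotransferases was 0.48 against Cis WT alone, of opposite sign to the pooled value.

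Same-numbered replicates showed no clear shared deviation (correlations of -0.085, -0.125 and 0.069). With 1 replicate difference per genotype, these correlations cannot show whether the numbers pair the libraries, and the labels do not say. With the number as a replicate block, 1 gene was called in the pooled comparison, 28 against Cis KO, 12 against Cis WT, and 24 in Cis KO against Cis WT.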
